A study of Mus musculus with 4 samples.

Results

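Neutrophil-rich spots of the infarct zone (IZ) were compared with neutrophil-free spots of the same sections, in hearts of mice that had undergone myocardial infarction (MI). A spot is one capture area of a Visium array, on which the RNA of a small piece of tissue section is tagged and counted as unique molecular identifiers (UMIs). A spot can hold several cells of different types. The rich spots were chosen by S100a8 and S100a9, which had at least 3 UMIs together in each of them, and the free spots had 0. A spot belonged to the IZ when 12 cardiomyocyte genes made up less than 0.5 times the section's 90th percentile share of non-mitochondrial UMIs, in connected patches of at least 10 spots. By this rule 410 of 2651 IZ spots were rich, 1454 were free and 787 had 1 or 2 UMIs, out of 5909 spots in the whole series.

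Neutrophils are short-lived granulocytes that leave the blood in the first days after coronary occlusion. They carry large amounts of S100a8 and S100a9 mRNA, the subunits of calprotectin, which binds calcium, zinc and manganese and acts as an alarmin on Toll-like receptors. They release granule proteases and are cleared by macrophages, and their departure precedes the phase in which cardiac fibroblasts (CFs) lay down scar matrix. Monocytes carry the same pair of transcripts at lower levels.

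The series held 1 section from each of 4 hearts of Collagen1a1-GFP+ mice aged 8 to 12 weeks, a line in which a collagen promoter drives GFP in fibroblasts, and every heart carried this transgene. The groups were 1 uninjured control, 1 heart at 3 days post-infarction (dpi) and 2 hearts at 5 dpi, with MI made by ligation of a coronary artery. The 5 dpi sections are called by their labels, female and male. The transcripts of 4 Y-linked genes went against these labels, with 718 UMIs in the section labelled female, 1 in that labelled male and 0 in the other sections. Sections shared between 446 and 1165 barcodes per pair, each at the same place on the array, because the barcodes mark fixed places.

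The study asked when and where activated CFs turn into reparative fibroblasts. The comparison here addressed which genes differ between parts of the same infarct that do and do not carry neutrophil transcripts. The IZ limit on cardiomyocyte RNA stood at 5.28%, 4.31% and 4.64%, in the order 3 dpi, labelled female and labelled male. The IZ formed 1 patch in each infarcted section, with 886, 1081 and 684 spots, and no patch was found in the control. Median depth in the IZ lay between 5476 and 6946 non-mitochondrial UMIs per spot.

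Rich spots made up 11.5% of the IZ at 3 dpi (102 spots, 95% exact binomial interval 9.49 to 13.8%). At 5 dpi they made up 18.7% of the section labelled female (202 spots, 16.4 to 21.1%) and 15.5% of that labelled male (106 spots, 12.9 to 18.4%). The mean was 15.2% ± 3.59 (SD, n = 3 sections), and the intervals cover counting error only. With 1 heart at 3 dpi, the time point and the heart cannot be told apart, and the shares were not tested between time points. Outside the IZ, rich spots made up 0.577%, 2.06% and 0.541% of the same sections. The uninjured heart had 3 such spots of 1166, or 0.257%, at a lower median depth of 2965.5 non-mitochondrial UMIs.

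A spot with any UMI of the pair was far more common than a rich spot, at 41.2%, 48.6% and 44.9% of the IZ against 2.74% of the control section. The shares depended on depth. When every spot was thinned to 1551 non-mitochondrial UMIs, 2.38%, 2.55% and 1.91% of IZ spots remained rich, and 0 of 1047 control spots, so that up to 0.287% is possible there. The threshold was crossed by few UMIs in many spots: 29, 74 and 41 spots had exactly 3 UMIs, and 63, 99 and 57 spots just outside the class had exactly 2. The highest count in a spot was 73, 44 and 62 UMIs.

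**Figure D1:**
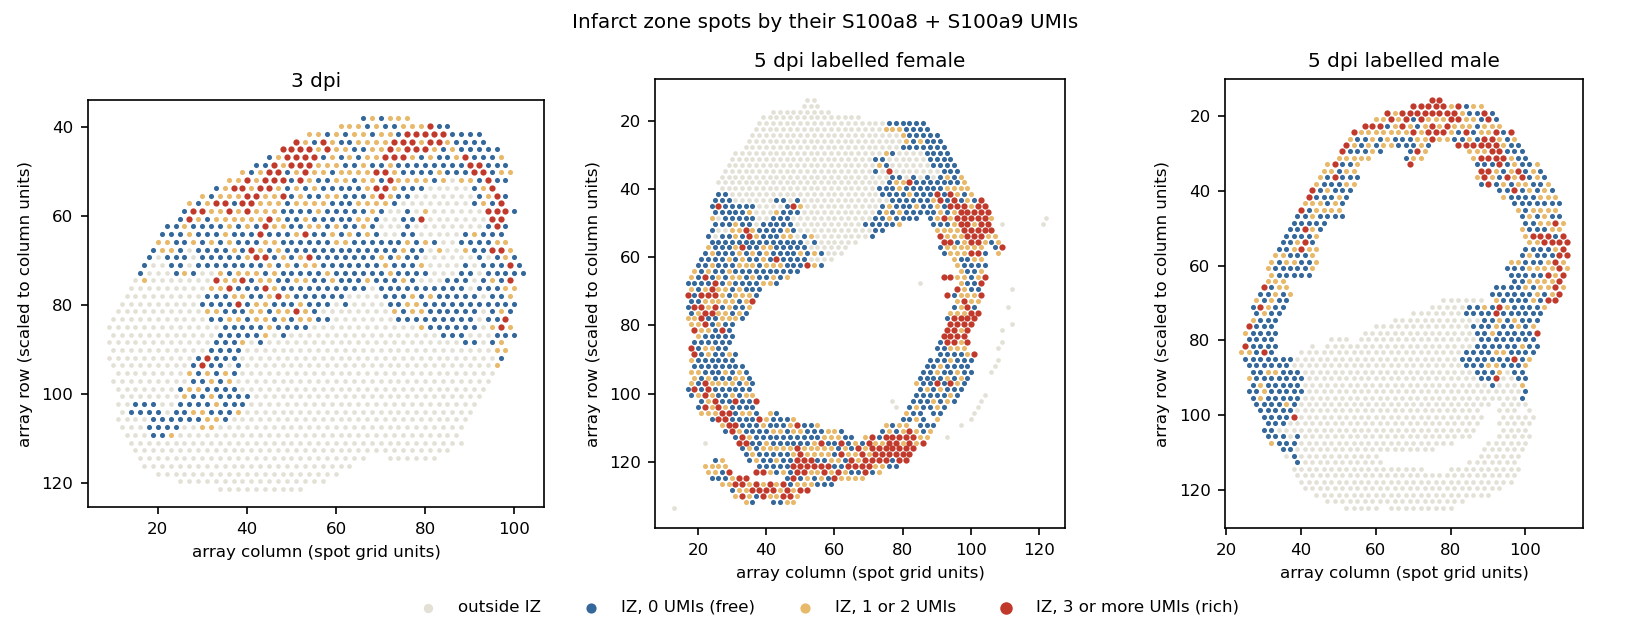
Spots of the 3 infarcted sections at their array column and row (spot grid units, rows scaled to the column unit), coloured by zone and by the UMIs of S100a8 and S100a9 together. The 102, 202 and 106 rich spots (red) often adjoin each other within the IZ, and the largest group holds 38 adjoining spots in the 5 dpi section labelled female.

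Rich spots lay next to each other. Among the neighbours of rich spots, 40.1%, 46.9% and 38.0% were rich, in the order 3 dpi, 5 dpi labelled female and 5 dpi labelled male. Among the neighbours of free spots these shares were 5.49%, 8.17% and 7.26%. The map of spot classes shows the largest clusters, with 18, 38 and 27 adjoining spots, and 13, 32 and 23 rich spots that had no rich neighbour. Rich spots carried 71.1%, 74.8% and 73.3% of all S100a8 and S100a9 UMIs of the IZ. Spots at the rim of the tissue or cavity, with fewer than 6 kept neighbours, made up 10.8%, 28.7% and 37.7% of rich spots and 8.45%, 27.5% and 26.3% of free spots.

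S100a8 (ENSMUSG00000056054) and S100a9 (ENSMUSG00000056071) chose the classes, so their levels are given as a description. In CPM, the count scaled to depth, taken here over non-mitochondrial UMIs, S100a8 stood at 109, 108 and 86.8 over the whole IZ and S100a9 at 116, 111 and 113, against 6.32 and 8.68 in the control. In rich spots S100a8 reached 502, 348 and 349 CPM, and S100a9 reached 522, 360 and 471 CPM. S100a9 had the more UMIs over each IZ, with 582, 852 and 545 against 546, 823 and 420 of S100a8. Their counts, divided by the non-mitochondrial UMIs of the spot, correlated over IZ spots at Spearman's rho of 0.37, 0.45 and 0.44. These were 886, 1081 and 684 spots, which share a library and differ in depth.

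The 250 bases before the annotated start of S100a8 and S100a9 are shown because these genes define the class, together with those of Slpi and Saa3, which were among the genes with the highest fold change below. The sequences are RefSeq's on build GRCm38.p6, printed 5′ to 3′ in the direction of transcription. Capitals mark matches, on either strand, to the letters TTGCNNAA (a C/EBP motif), to GAGGAA (PU.1) or to the NF-kB motif.
S100a8 (chr3:90668821-90669070, plus strand): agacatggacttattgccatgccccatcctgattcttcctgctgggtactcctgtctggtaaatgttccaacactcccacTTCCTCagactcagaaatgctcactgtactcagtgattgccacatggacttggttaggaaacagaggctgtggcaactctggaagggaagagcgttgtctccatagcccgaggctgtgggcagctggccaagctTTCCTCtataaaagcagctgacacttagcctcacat
S100a9 (chr3:90695722-90695971, minus strand): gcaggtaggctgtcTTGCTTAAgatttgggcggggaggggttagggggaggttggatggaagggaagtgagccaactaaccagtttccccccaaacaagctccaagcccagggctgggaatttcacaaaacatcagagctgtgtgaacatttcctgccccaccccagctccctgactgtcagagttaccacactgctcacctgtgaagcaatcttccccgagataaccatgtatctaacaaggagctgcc
Slpi (chr2:164356508-164356757, minus strand): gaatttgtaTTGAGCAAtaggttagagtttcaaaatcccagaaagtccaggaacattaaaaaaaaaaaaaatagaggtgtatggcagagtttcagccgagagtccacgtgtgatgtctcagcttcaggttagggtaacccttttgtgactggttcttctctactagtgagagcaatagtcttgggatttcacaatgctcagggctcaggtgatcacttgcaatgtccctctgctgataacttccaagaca
Saa3 (chr7:46715677-46715926, minus strand): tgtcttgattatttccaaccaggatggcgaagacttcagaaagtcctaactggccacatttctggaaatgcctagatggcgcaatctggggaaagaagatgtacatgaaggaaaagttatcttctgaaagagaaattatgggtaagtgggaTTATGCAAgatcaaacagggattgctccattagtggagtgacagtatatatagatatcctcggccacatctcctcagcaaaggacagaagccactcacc
S100a8 had 2 matches to the PU.1 letters, and S100a9, Slpi and Saa3 had 1 match each to the C/EBP letters, with no overlap between matches. Of the 12 highest genes 7 were in the promoter table, and 3 of these (Slpi, Saa3 and Cytip) held the C/EBP letters, while Clec4d, Csf3r, Il1b and Slfn4 did not. The PU.1 letters were in 3 of the 7 (Clec4d, Csf3r and Cytip) and the NF-kB motif in 0. In the same window of 32851 promoters, 9.56% held the C/EBP letters, 23.3% the PU.1 letters and 0.980% the NF-kB motif. A match is a string in a window and says nothing of binding in these hearts.

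For the comparison of all genes, each rich spot was paired with a free spot of the same section within 0.25 log2 units of its non-mitochondrial UMIs. This gave 102, 201 and 106 pairs, or 409 in all. The UMIs were summed per class and section, and the 6 sums were compared with edgeR's quasi-likelihood test with the section as a block. S100a8, S100a9 and the 13 mitochondrial genes were left out. A value in CPM is a level, and a log2 fold change (rich over free) is a difference between levels with its standard error (SE). In bulk sums of spots, more cells of a type and more RNA per cell cannot be told apart.

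Of 8341 genes tested, 411 were higher in rich spots (4.93%) and 800 were lower (9.59%) at an adjusted p under 0.05. A gene could pass the filter on low counts through the sums of 1 class alone, and the call of such a gene is in part set by the filter. In 401 of the 411 and 772 of the 800 the direction was the same in 3 of 3 sections. The classes also differed in place and in cardiomyocyte RNA, which stands beside every result below. Cardiomyocyte genes made up 0.773% of the UMIs of rich spots and 2.44% of those of free spots at 3 dpi, and at 5 dpi 0.232% and 1.10% (labelled female) and 0.326% and 1.20% (labelled male). Mitochondrial transcripts made up 4.50%, 2.95% and 1.82% of all UMIs in rich spots and 10.7%, 6.66% and 4.26% in free spots. The median distance from the IZ border was 6, 7 and 22.5 spot steps for rich spots and 2, 6 and 8.5 for free spots.

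A further pairing therefore also required a like cardiomyocyte share, within 0.5 log2 units. It left 81, 182 and 97 pairs, with shares of 0.999% against 1.05%, 0.265% against 0.279% and 0.369% against 0.378%. Of 7853 genes tested in these sums, 41 were higher (0.522%) and 31 lower (0.395%). All 41 were among the 411, and 27 of the 31 were among the 800. Pairing on cardiomyocyte share and on steps from the border together left 18 higher and 12 lower, which held 15 of the 41 and 10 of the 31. The 15 included Cxcl5, Mmp9, Saa3, Slpi, Hmox1, Csf3r, Cxcl14, Timp1, Mt1 and Mt2, and the 10 were Gpnmb, Ltbp2, Postn, Ogn, Thbs4, Fbln5, Ddah1, Cilp, Aspn and Fmod. The others of the 41 and 31 lost the call there or were not tested. In pairs matched on cardiomyocyte share but not on steps, Ddah1 was not lower at 3 dpi (37.3 CPM in rich, 32.4 in free spots). The values that follow are from pairs matched on UMIs, and the value after matching on cardiomyocyte share is named as such. The counts moved with the section left out: without the 5 dpi section labelled female, 218 genes were higher and 533 lower in pairs matched on UMIs. In pairs matched also on cardiomyocyte share there were 12 and 9 without 3 dpi, 25 and 9 without the 5 dpi section labelled female, and 44 and 48 without the section labelled male.

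Mmp9, Slpi, Saa3, Cxcl5 and Hmox1 were among the genes with the highest fold changes in rich spots. Each was higher in 3 of 3 sections, which the rule for naming these genes required. Mmp9 (ENSMUSG00000017737), a gelatinase stored in neutrophil granules, had 89.5, 39.5 and 40.6 CPM in rich spots and 5.17, 5.14 and 0 CPM in free spots (3 dpi, 5 dpi labelled female, 5 dpi labelled male). This is a log2 fold change of 3.60 (SE 0.33, adjusted p = 7.11e-09 by edgeR). Slpi (ENSMUSG00000017002), an inhibitor of neutrophil elastase, had 66.5, 139 and 109 CPM against 5.17, 11.4 and 16.7 CPM, a log2 fold change of 3.24 (SE 0.21, adjusted p = 7.13e-12). The level was thus 12.1-fold higher for Mmp9 and 9.45-fold higher for Slpi, the free spots of the 5 dpi section labelled male holding no Mmp9 UMI.

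Saa3 (ENSMUSG00000040026), an acute-phase serum amyloid made in inflamed tissue, had 66.5, 628 and 295 CPM in rich spots and 6.46, 50.3 and 47.7 CPM in free spots. Its level was lower at 3 dpi than in either 5 dpi section, and its log2 fold change was 3.23 (SE 0.17, adjusted p = 1.41e-13). Cxcl5 (ENSMUSG00000029371), a chemokine that draws neutrophils through the receptor Cxcr2, had 148, 50.3 and 84.7 CPM against 20.7, 7.43 and 8.34 CPM, and changed by 2.81 (SE 0.21, adjusted p = 1.25e-10). Hmox1 (ENSMUSG00000005413), which degrades haem, had 1606, 1035 and 1081 CPM against 273, 230 and 153 CPM and a log2 fold change of 2.39 (SE 0.11, adjusted p = 2.08e-14).

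**Figure D2:**
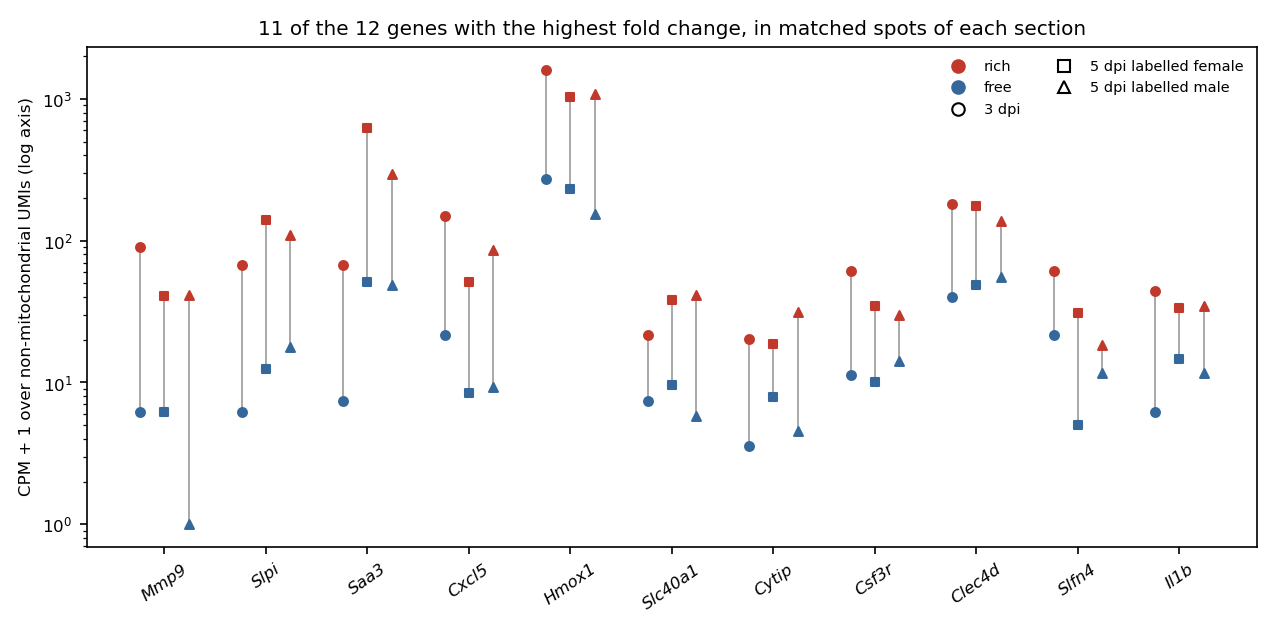
Level (CPM + 1, log axis) of 11 of the 12 genes with the highest fold change, in rich (red) and free (blue) matched spots, with a marker shape for each section and a line joining the classes of 1 section. Rich lies above free in 3 of 3 sections for each gene, which the naming rule required. The log2 fold changes run from 3.60 for Mmp9 to 1.60 for Il1b.

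The 12 highest genes also held Slc40a1 (log2 fold change 2.16, SE 0.29), Cytip (1.97, SE 0.36), Csf3r (1.78, SE 0.26), Clec4d (1.70, SE 0.15), Slfn4 (1.69, SE 0.30) and Il1b (1.60, SE 0.27). Slc40a1 encodes ferroportin, which exports iron, Cytip regulates adhesion of leukocytes, Csf3r is the receptor for granulocyte colony-stimulating factor and Clec4d a C-type lectin of myeloid cells. The largest adjusted p of these 6 was 0.000267. Free spots held few UMIs of some of these genes, with 4, 9 and 0 of Mmp9, 5, 15 and 4 of Slc40a1 and 2, 12 and 3 of Cytip, so that these passed the filter mainly through rich spots. After matching on cardiomyocyte share, Cxcl5 (2.63), Mmp9 (2.14), Saa3 (2.05), Slpi (1.96), Hmox1 (1.31), Csf3r (1.26), Slc40a1 (1.25), Il1b (1.02) and Clec4d (0.64) stayed past the threshold. Cytip (0.88, adjusted p = 0.354) and Slfn4 (0.67, adjusted p = 0.391) did not. With steps matched as well, Il1b (0.66, adjusted p = 0.632) and Clec4d (0.28, adjusted p = 0.794) lost the call, Hmox1 stood at 0.55 (adjusted p = 0.000794), and Slc40a1 was not tested. Slc40a1 was higher in 2 of 3 sections in pairs matched on cardiomyocyte share, with 14.2 CPM in rich and 14.4 in free spots at 3 dpi.

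The label of the spots was set beside neutrophil markers that the rule did not use. Of 14 such genes, 5 (Mmp9, Slpi, Il1r2, Csf3r and Clec4d) passed the filter on low counts. Il1r2 passed through its rich sums, with 15, 23 and 13 UMIs in rich spots and 3, 3 and 2 in free spots, so the direction of such genes was in part fixed by the filter. The 9 others had few UMIs. Retnlg, a resistin-like protein of mature neutrophils, had 14, 27 and 10 UMIs in rich spots and 2, 1 and 1 in free spots. Trem1, an activating receptor, had 9, 14 and 12 against 0, 1 and 0, and Cxcr2 had 12, 8 and 3 against 1, 0 and 0. Summed over sections, Retnlg and Trem1 were higher in rich spots by ratios of 12.6 and 34.7, with exact 95% intervals that cover counting error only of 4.65 to 48.2 and 5.83 to 1409. The granule genes Lcn2 and Mmp8 had 37 and 30 UMIs in rich spots against 25 and 19 in free spots. Their ratios of 1.47 (0.860 to 2.54) and 1.57 (0.853 to 2.94) had intervals that include equal levels, and Lcn2 at 3 dpi had 4 UMIs in rich and 7 in free spots. Ly6g, the surface antigen by which mouse neutrophils are usually sorted, had 2 UMIs in rich spots and 0 in free spots, and Elane, which encodes neutrophil elastase, had 0 in both. The granule genes Ngp, Camp and Ltf had 9, 6 and 2 UMIs in all rich spots.

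Of 27 neutrophil receptors and surface proteins, 16 were tested, and 13 of these rose and none fell (median log2 fold change 1.18, against -0.004 over all genes tested). The share of all genes that rose was 4.93%. Il1r2, the decoy receptor for interleukin 1, had 19.2, 13.2 and 15.1 CPM in rich spots and 3.88, 1.71 and 2.38 CPM in free spots, a log2 fold change of 2.51 (SE 0.44, adjusted p = 0.000145). Itgam, the alpha chain of the integrin Mac-1, had 97.1, 78.9 and 55.7 CPM against 24.5, 29.1 and 21.5 CPM, and its partner Itgb2 had 219, 201 and 205 against 78.8, 110 and 103. They changed by 1.47 (SE 0.18) and 0.98 (SE 0.12). The lectins Clec4d and Clec4e, the receptor C5ar1 for complement C5a and Ltb4r1 for leukotriene B4 were among the 13. Fcgr4 (0.33, adjusted p = 0.206), Selplg (0.45, adjusted p = 0.0549) and Cxcr4 (0.51, adjusted p = 0.126) did not pass. Monocytes and macrophages also carry most of these receptors. With cardiomyocyte share matched, 2 of 13 tested members, Csf3r and Clec4d, were higher, and the median was 0.24. Over all genes 0.522% were higher there and the median was -0.008.

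Of 40 granule and secreted proteins, 39 were in the files and 15 were tested. Of the 15 tested, 9 rose and 1 fell (median 0.67), against 4.93% and 9.59% of all genes. Besides Mmp9 and Slpi, the 9 were Slfn4, Hp, Fgr, Srgn, Chil3, Alox5ap and Lyz2. Srgn, the proteoglycan that packs granules, had 450, 260 and 297 CPM in rich spots against 140, 131 and 153 CPM in free spots, a log2 fold change of 1.10 (SE 0.12, adjusted p = 1.41e-07). Lyz2, lysozyme of all myeloid cells, had 5453, 6892 and 5648 against 2663, 4770 and 4091 CPM, a change of 0.58 (SE 0.09). G0s2, an inhibitor of lipolysis, fell by 1.01 (SE 0.29, adjusted p = 0.0163). Elane, Stfa2 and Stfa3 had 0 UMIs. In the second pairing, where 0.522% of all genes were higher, Mmp9, Slpi, Hp and Srgn stayed higher, and Lyz2 stood at 0.01 (adjusted p = 0.974). Hp was higher in 2 of 3 sections there, and with steps matched as well Hp (0.69, adjusted p = 0.181) and Srgn (0.34, adjusted p = 0.402) lost the call. The receptor and granule lists held 22 genes that rose in the first pairing and 6 in the second. The 6 became 2 without the 3 dpi section, 5 without the 5 dpi section labelled female and 7 without that labelled male.

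Of the 6 NADPH oxidase genes, which build the oxidative burst, Ncf1 (log2 fold change 0.82), Ncf4 (0.51) and Cyba (0.43) rose. Over all genes the share that rose was 4.93%. Cybb, the catalytic chain, had 81.8, 101 and 98.7 CPM in rich and 82.7, 81.1 and 81.1 CPM in free spots (0.13, adjusted p = 0.610). None of the 6 passed after matching on cardiomyocyte share, and Cyba then stood at -0.05.

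Of 14 chemokines and receptors that recruit neutrophils 4 were tested, and Cxcl5, Ccl6 and Ccl9 rose, while Ccl4 (log2 fold change 0.42, adjusted p = 0.259) did not pass. Over all genes 4.93% rose. Ccl6 had 1012, 370 and 467 CPM in rich spots and 257, 146 and 159 CPM in free spots (log2 fold change 1.53, SE 0.11, adjusted p = 6.87e-11). The level at 3 dpi was the highest in both classes. Ccl9 changed by 1.07 (SE 0.11). The Cxcr2 ligands Cxcl1 and Cxcl2 were below the filter, with 52 and 25 UMIs in rich spots against 8 and 1 in free spots. Ppbp, a chemokine of platelets, had 94, 20 and 15 UMIs in rich spots and 4, 7 and 1 in free spots. Cxcl5, Ccl6 (0.70) and Ccl9 (0.43) stayed higher after matching on cardiomyocyte share, where 0.522% of all genes were higher. With steps matched as well, Ccl6 (0.32, adjusted p = 0.259) and Ccl9 (0.25, adjusted p = 0.694) lost the call and Cxcl5 (2.51) kept it.

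Of 11 tested chemokines and receptors that act on monocytes, Ccl7, Ccl2, Ccr1 and Ccr2 rose and none fell (median 0.42). Over all genes 4.93% rose and the median was -0.004. Ccl7 had 516, 233 and 245 CPM in rich spots against 199, 98.3 and 117 CPM in free spots, a log2 fold change of 1.15 (SE 0.11, adjusted p = 1.12e-08). Ccl2 changed by 0.82 (SE 0.12), Ccr1 by 0.95 (SE 0.21) and Ccr2 by 0.60 (SE 0.16). Ccl12 (0.07) and Csf1 (0.01) did not pass. Ccl7 alone of this list was called after matching on cardiomyocyte share, with 0.44 (adjusted p = 0.0316), where 0.522% of all genes were higher.

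In the interleukin 1 family, Il1b, Il1r2 and the receptor antagonist Il1rn rose among 10 tested genes (median 0.43). Over all genes 4.93% rose. Il1b had 43.5, 32.6 and 33.7 CPM in rich spots and 5.17, 13.7 and 10.7 CPM in free spots. Il1rn changed by 0.83 (SE 0.25, adjusted p = 0.0227). The inflammasome genes Casp1, Casp4, Gsdmd and Pycard did not pass, with log2 fold changes of 0.23 to 0.45, and Nlrp3 had 2 UMIs in rich and 3 in free spots. Il1b stood at 1.02 (adjusted p = 0.0488) after matching on cardiomyocyte share.

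Of 12 tested receptors and signalling genes of calprotectin, Cd14 (log2 fold change 1.08, SE 0.25) and Nfkbia (0.86, SE 0.15) rose and none fell (median 0.34, against -0.004 over all genes, of which 4.93% were higher). Tlr4, the receptor for the S100a8 and S100a9 pair, had 25.6, 18.9 and 23.2 CPM in rich spots against 11.6, 14.3 and 17.9 CPM in free spots (0.47, adjusted p = 0.270). Ager, the receptor for advanced glycation end products, had 9 UMIs in rich and 13 in free spots. No gene of this list passed after matching on cardiomyocyte share.

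Among 15 tested genes of endothelial adhesion, the 3 that rose (Itgal, Itgam and Itgb2) are integrin chains of leukocytes, and Jam2 fell by 1.37 (SE 0.14), where 4.93% of all genes rose and 9.59% fell. The endothelial partners Icam1 (log2 fold change -0.05, adjusted p = 0.889) and Vcam1 (0.23, adjusted p = 0.340) did not pass. P-selectin (Selp) had 41 UMIs in rich spots against 7 in free spots. Jam2 stood at 0.03 after matching on cardiomyocyte share, where no gene of the list passed.

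Genes listed as products of inflammatory fibroblasts were mostly higher in rich spots in both pairings. Of 16 such genes 11 were tested, 10 rose and none fell (median 0.66, against -0.004 over all genes, of which 4.93% rose). After matching on cardiomyocyte share 8 of 11 were still higher (median 0.76), against 0.522% of all genes (median -0.008). The list shares Cxcl5 with the chemokines above and Thbs1 with the monocyte markers below. Which cells of a spot made these transcripts was not tested. Timp1, an inhibitor of metalloproteinases, had 2500, 2578 and 3622 CPM in rich spots and 1866, 1568 and 1542 CPM in free spots, a log2 fold change of 0.69 (SE 0.11, adjusted p = 4.54e-05). Cxcl14, a chemokine of stromal cells, had 25.6, 81.2 and 27.9 against 24.5, 16.6 and 13.1 CPM (1.48, SE 0.28). The classes were nearly level for Cxcl14 at 3 dpi. The metallothioneins Mt1 and Mt2, which bind zinc and copper, changed by 0.31 (SE 0.09) and 0.66 (SE 0.13). They stood at 0.52 and 1.03 after matching on cardiomyocyte share. Cxcl12 (0.21, adjusted p = 0.630) and Ptx3 (0.45, adjusted p = 0.702) lost the call there. In those pairs 6, 7 and 7 genes of the list were higher without the 3 dpi section, without the 5 dpi section labelled female and without that labelled male.

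Of 22 tested genes of the fibrillar matrix and of repair fibroblasts, 12 fell and none rose (median -0.32, where 9.59% of all genes fell). After matching on cardiomyocyte share 9 fell and none rose (median -0.21, where 0.395% of all genes fell). The summed level of the list was higher in rich spots in the section labelled male, at 42152 against 40817 CPM. Postn, periostin of activated CFs, had 1104, 2375 and 2240 CPM in rich spots and 2685, 4414 and 4116 CPM in free spots. It fell by 1.11 (SE 0.09, adjusted p = 1.46e-09), and by 0.65 after matching on cardiomyocyte share. Aspn, asporin, which binds collagen and restrains transforming growth factor beta, had 63.9, 182 and 175 CPM against 196, 427 and 360 CPM, and fell by 1.33 (SE 0.12) and by 1.04. Fmod, fibromodulin, had 5.11, 63.5 and 45.3 against 14.2, 181 and 186 CPM, and fell by 1.76 (SE 0.16) and by 1.09.

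Cthrc1, the marker of reparative fibroblasts, had 294, 512 and 554 CPM in rich spots against 474, 760 and 780 CPM in free spots. It fell by 0.67 (SE 0.09, adjusted p = 8.69e-06), and by 0.38 (adjusted p = 0.0259) after matching on cardiomyocyte share. With steps matched as well it stood at -0.37 and the call was lost (adjusted p = 0.0695). The major collagens did not pass in either pairing, with Col1a1 at 0.02, Col1a2 at -0.02 and Col3a1 at -0.11 in the first, and Fn1 at 0.08. Of 8 general fibroblast markers 1 (Dpt, -0.40) fell and none rose, against 9.59% and 4.93% of all genes, and Pdgfra stood at 0.45 and Tcf21 at -0.34. The count of lower matrix genes depended on the sections. In pairs matched also on cardiomyocyte share, 4 fell without the 3 dpi section, 2 without the 5 dpi section labelled female and 12 without that labelled male. Matching on cardiomyocyte share and steps together left 4 of 22 lower.

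**Figure D3:**
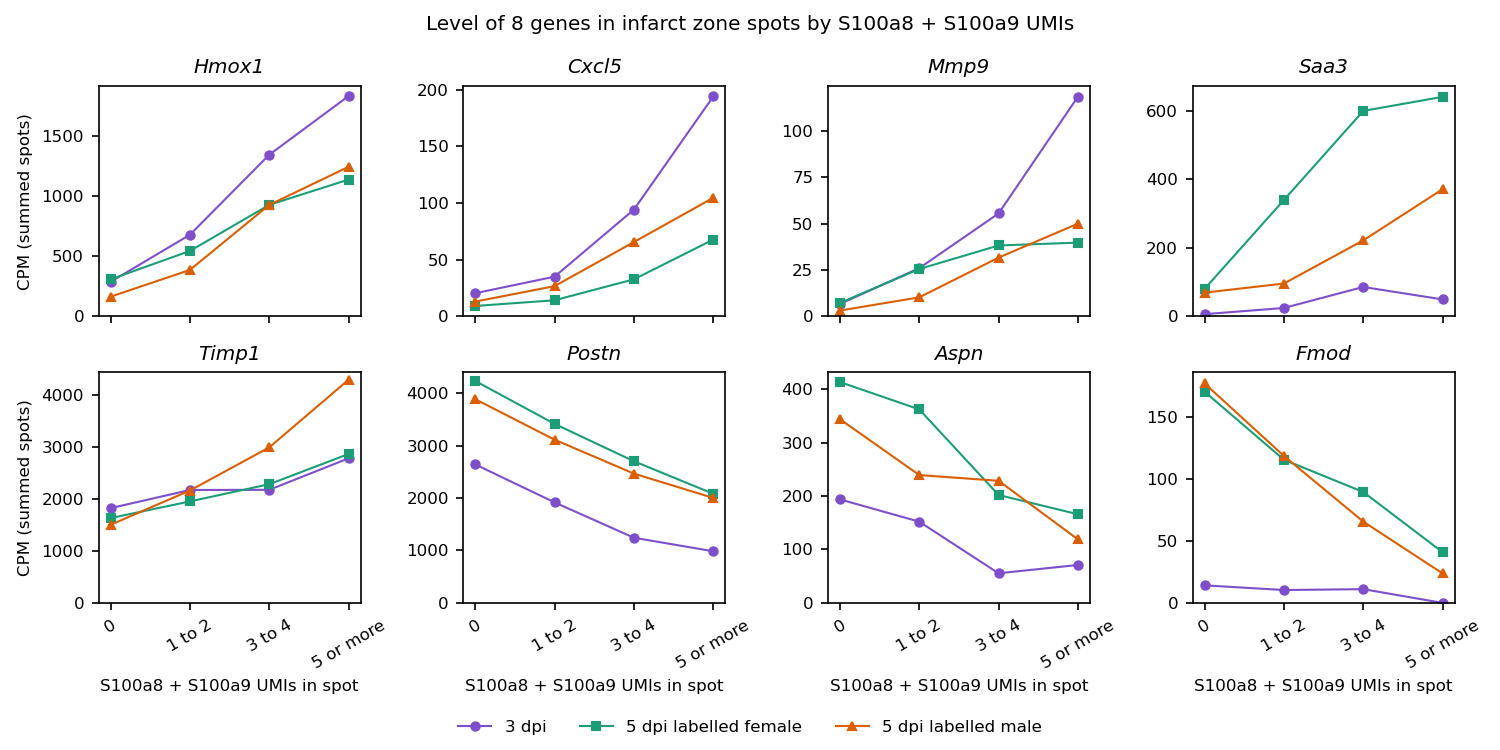
Level (CPM over summed spots) of 8 genes in IZ spots grouped by their S100a8 and S100a9 UMIs, without matching, with a line for each infarcted section. Hmox1 climbs from 287, 308 and 164 CPM at 0 UMIs to 1829, 1136 and 1242 CPM at 5 or more, while Postn drops from 2639, 4230 and 3883 to 984, 2080 and 2001 CPM.

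Spots with 1 or 2 UMIs belong to neither class. Hmox1 had 678, 544 and 386 CPM in these spots, between 287, 308 and 164 in free spots and 1342, 926 and 926 at 3 to 4 UMIs. Aspn had 152, 362 and 239 CPM there, below 194, 413 and 344 in free spots. At 5 or more UMIs Aspn stood at 71.0, 166 and 119 CPM, which at 3 dpi was not below the 55.5 CPM at 3 to 4 UMIs. Not every gene lay between the classes, and Slpi at 3 dpi had 9.69 CPM at 0 UMIs, 7.80 at 1 or 2 and 63.8 at 3 to 4. These levels were not matched for depth or cardiomyocyte RNA, and are given as a description.

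Among genes for proteases of the matrix and of lysosomes, 8 of 13 tested rose and Mmp2 fell in the first pairing. Over all genes 4.93% rose and 9.59% fell. Adam8, a protease of activated myeloid cells, had 305, 201 and 186 CPM in rich spots against 114, 105 and 64.4 CPM in free spots (log2 fold change 1.14, SE 0.13). Ctsl (0.64), Ctss (0.50) and Ctsb (0.33) are cathepsins of macrophages. In the second pairing, where 0.522% of all genes were higher, Mmp9 alone stayed higher, and Ctsl stood at 0.02 and Ctss at -0.11. Mmp2, a gelatinase of fibroblasts, had 81.8, 314 and 267 CPM in rich spots and 87.9, 430 and 366 CPM in free spots, and fell by 0.48 (SE 0.11, adjusted p = 0.00228).

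Of 26 tested genes of hypoxia and glycolysis, 8 fell and 4 rose (median -0.21), where 9.59% of all genes fell and 4.93% rose. Those that fell included Hk2 (by 1.22), Bnip3 (by 0.85) and Hk1 (by 0.63), and Gapdh and Aldoa were also lower. Those that rose were Slc16a3, the lactate exporter (0.94, SE 0.18), Plin2, which coats lipid droplets (0.81, SE 0.12), Hif1a (0.45) and Eno1 (0.43). At a like cardiomyocyte share Slc16a3 alone was called (0.74, adjusted p = 0.0199), and the median was 0.14.

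Of 15 tested interferon-induced genes, Ifit3 (fell by 0.52), Ifi27l2a (by 0.41) and Isg15 (by 0.34) passed and none rose, where 9.59% of all genes were lower. The summed level of the list was higher in rich spots in the section labelled female, at 3729 against 3482 CPM. Isg15 had 335, 187 and 187 CPM in rich spots and 389, 230 and 213 CPM in free spots. The same 3 genes were lower after matching on cardiomyocyte share, by 0.77, 0.44 and 0.52, where 0.395% of all genes were lower. With steps matched as well they stood at -0.54, -0.06 and -0.27, and all 3 calls were lost (adjusted p = 0.382, 0.978 and 0.629). Among 10 tested genes of efferocytosis, the uptake of dying cells, Stab1 rose (0.39, adjusted p = 0.00845) and Mfge8 fell by 0.40 (adjusted p = 0.00817). These shares are near those of all genes, 4.93% higher and 9.59% lower. Neither gene passed after matching on cardiomyocyte share.

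**Figure D4:**
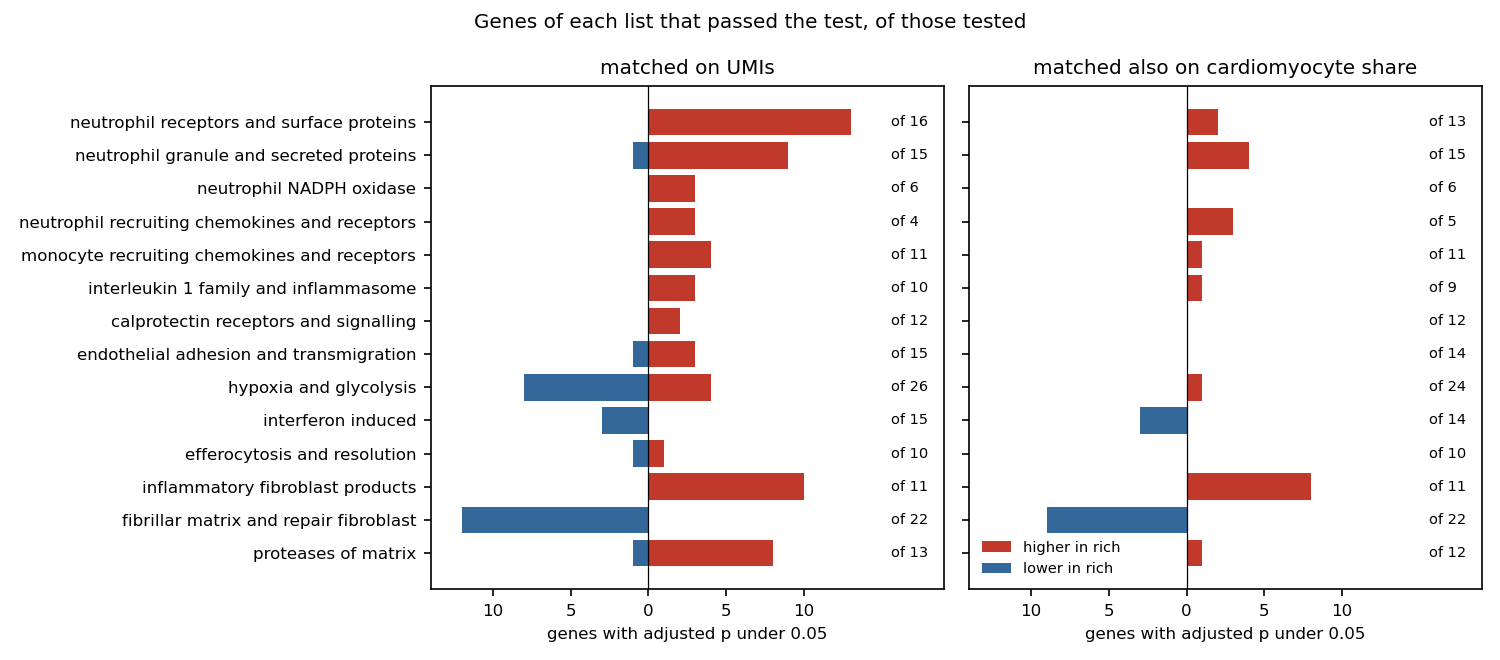
Genes of each of 14 lists with an adjusted p under 0.05, higher (red, to the right) or lower (blue, to the left) in rich spots, in pairs matched on UMIs and in pairs matched also on cardiomyocyte share; the number at the right of a bar is the number tested. The list of inflammatory fibroblast products keeps 8 of 11 genes and that of the fibrillar matrix 9 of 22 in the second panel. Neutrophil receptors go from 13 of 16 to 2 of 13. Over all genes 4.93% were higher and 9.59% lower in the first panel, and 0.522% and 0.395% in the second.

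Markers of other cell types moved with the classes as well, where 4.93% of all genes were higher and 9.59% lower. Among 8 monocyte markers 5 rose (Thbs1, Chil3, Plac8, F10 and Ccr2), and their summed level was 996, 1154 and 794 CPM in rich spots against 616, 718 and 610 CPM in free spots. Among 8 macrophage markers Fcgr1 and Cd68 rose, and the sum was 4573, 6052 and 5450 against 3281, 5243 and 5599 CPM. Of the Spp1 macrophage markers 6 of 8 rose, with 10378, 8014 and 7163 against 4253, 5288 and 4918 CPM summed. Spp1, osteopontin, had 5232, 3563 and 2578 CPM in rich spots and 1691, 1920 and 1545 CPM in free spots. Their part in the neutrophil results was not tested.

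After matching on cardiomyocyte share, Thbs1 was the sole monocyte marker that was higher (0.41), and no macrophage marker was. Of the 8 Spp1 macrophage markers 1 was higher and 2, Gpnmb and Lgals3, were lower. Over all genes 0.522% were higher and 0.395% lower there. Gpnmb, a glycoprotein of lysosomes, stood at 0.30 (adjusted p = 0.0426) in the first pairing and at -0.49 (adjusted p = 0.000460) in the second. Lgals3, galectin-3, stood at 0.32 (adjusted p = 0.0256) and -0.30 (adjusted p = 0.0444). Spp1 stood at 0.99 and 0.11 (adjusted p = 0.695). Mmp12, a macrophage elastase, stood at 0.44 (adjusted p = 0.0193) and -0.30 (adjusted p = 0.433), and with steps matched as well it was called lower (-0.69, adjusted p = 0.00593). The macrophage gene Ms4a7 (-0.41) was lower in the second pairing and passed in neither direction in the first.

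Of 8 resident macrophage markers 5 were tested and 2 rose, against 4.93% of all genes, while Folr2 (-0.03), Gas6 (-0.40) and Cbr2 (0.32) did not pass. The 2, the chemokine Pf4 and the transglutaminase F13a1, which platelets also make, rose by 1.37 and 1.52 and stood at 0.51 and 0.90 in the second pairing. With steps matched as well they stood at 0.18 (adjusted p = 0.694) and 0.36 (adjusted p = 0.816), and both calls were lost. Platelet markers proper could not be tested, and their summed level was 132, 25.2 and 25.5 CPM in rich spots against 12.9, 8.57 and 8.34 CPM in free spots. Lymphocyte and mesothelial markers were too low to test, with sums of at most 52.4 and 78.4 CPM. Of 8 endothelial markers Vwf fell and none rose, and of 6 mural markers 3 (Rgs5, Notch3 and Cspg4) fell, where 9.59% of all genes fell. No endothelial or mural marker was called in the second pairing, in which Vwf stood at 0.02 and Cspg4 at 0.29. Cdk1, Top2a and Birc5 of 7 cell cycle markers rose, where 4.93% of all genes rose. None of the 7 passed in the second pairing, where 0.522% of all genes were higher.

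The lowest genes in the first pairing were genes of muscle, apart from Thbs4 and Cilp. The 12 cardiomyocyte genes set the IZ limit and the second pairing, so their median of -2.12 in the first pairing and -0.08 in the second is a description. All 8 border cardiomyocyte markers were lower (median -2.06), where 9.59% of all genes were lower. By the naming rule the lowest were Cavin4, Mypn, Thbs4, Myh7, Pgm5, Cilp, Itgb1bp2, Actn2, Xirp2, Smpx, Synpo2l and Acta1, with log2 fold changes of -2.65 to -2.18. Cavin4, Mypn and Pgm5 passed the filter mainly through free spots, with at most 10 UMIs in the rich spots of a section. Actn2, alpha-actinin of the Z disc, had 231, 62.4 and 76.6 CPM in rich spots and 776, 347 and 360 CPM in free spots. After matching on cardiomyocyte share none of the 8 border markers was called, and Actn2 stood at -0.20, Xirp2 at -0.33 and Acta1 at 0.08. Thbs4, thrombospondin-4, and Cilp, a matrix protein of CFs, were still lower, by 0.87 and 0.91.

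The genes that differed most in pairs matched on cardiomyocyte share were named by the same rule, applied after the values were seen. Besides the genes given above, the 12 highest held Cxcl14 (1.38), Prg4 (1.31), Gclm (1.25), Ifitm1 (1.24) and Ednrb (1.24). The Cxcl14 difference in these pairs came mainly from the section labelled female, with 133 UMIs in rich and 33 in free spots. Cxcl14 had 13 against 10 UMIs at 3 dpi and 17 against 14 in the section labelled male. Ednrb was nearly level at 3 dpi, with 14 UMIs in rich and 13 in free spots. Gclm, a subunit of the enzyme that makes glutathione, had 74.6, 81.3 and 83.2 CPM in rich spots against 41.4, 38.1 and 17.1 CPM in free spots of these pairs. Prg4, lubricin, had 65.7, 35.7 and 54.6 against 36.0, 8.16 and 25.6 CPM, so that its levels overlapped between sections. With steps matched as well, Prg4 (0.34, adjusted p = 0.933) and Gclm (0.58, adjusted p = 0.411) lost the call, and Ednrb was not tested. The transcription factor Cebpb (0.95) and the suppressor of cytokine signalling Socs3 (0.79) were also among the 41, and were picked after their values were seen.

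The 12 lowest in these pairs were Megf6 (fell by 1.24), Fmod, Aspn, Ssc5d, Eln (by 0.95), Islr, Cilp, Fbln5 (by 0.87), Thbs4, Ptn, Lrrk1 and Ifit3. At 3 dpi Megf6 had 2 UMIs in rich and 2 in free spots, so its direction there came from the depth of the sums (3.55 against 3.60 CPM). Eln, elastin, had 19.5, 144 and 293 CPM in rich spots and 64.8, 258 and 555 CPM in free spots, and Fbln5, which assembles elastic fibres, had 17.8, 105 and 96.9 against 39.6, 185 and 174 CPM. Both were lower in rich spots in 3 of 3 sections, as the naming rule required, and both were lower at 3 dpi than at 5 dpi in either class. Pairing on steps as well ended the call of 6 of the 12, which were Eln (-0.18, adjusted p = 0.898), Ssc5d (-0.73), Islr (-0.53), Ptn (-0.59), Lrrk1 (-0.45) and Ifit3 (-0.54), and Megf6 was not tested there. Aspn (-0.87), Fmod (-0.97), Cilp (-0.88), Thbs4 (-0.90) and Fbln5 (-0.68) stayed past the threshold.

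**Figure D5:**
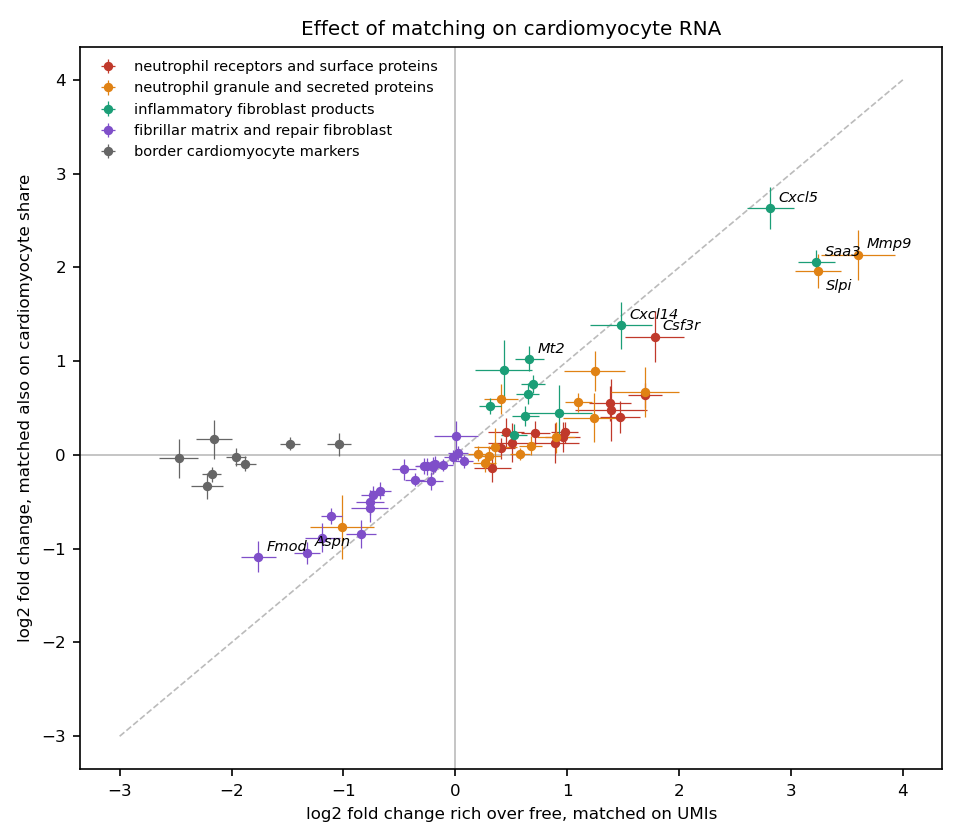
Log2 fold change of list genes in pairs matched on UMIs (horizontal) and in pairs matched also on cardiomyocyte share (vertical), with standard errors as bars and equal values on the dashed line. Border cardiomyocyte markers move from a median of -2.06 to -0.03, whereas Cxcl5 stays at 2.63 and Aspn at -1.04.

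The class effect in the 1 section at 3 dpi was set against that in the 2 sections at 5 dpi by a class-by-time term in edgeR. The time point and the single 3 dpi heart cannot be told apart in this term, so the values describe that section against the others. The 3 dpi arm has no spread of its own and is assumed to vary like the 5 dpi sections. Tnc, tenascin-C, a matrix protein of wounds, was lower in rich spots at 3 dpi (546 against 1089 CPM) and higher in both 5 dpi sections (459 against 322 and 536 against 293 CPM). The 5 dpi effect minus the 3 dpi effect was 1.75 on the log2 scale. The haemoglobin genes Hbb-bs, Hbb-bt, Hba-a1 and Hba-a2 were higher in rich spots at 3 dpi, with log2 ratios of 1.91 to 2.15, and between -0.21 and 0.51 in the 5 dpi sections. These genes have near-identical copies, between which reads can be split, so each is uncertain on its own. The summed erythroid level was 6176, 23372 and 10910 CPM in rich spots against 1523, 16812 and 11795 CPM in free spots, and its part in the Hmox1 and Slc40a1 results, genes of haem and iron handling, was not tested.

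Genes were also ranked by how their counts per non-mitochondrial UMI followed those of S100a8 and S100a9 together over IZ spots. Of 6277 genes, the 10 with the highest mean Spearman's rho over the sections included Hmox1 (0.32), Pf4 (0.30), Ccl6 (0.29) and Spp1 (0.28). Ftl1 (0.27), Actb (0.26), Timp1 (0.25), Actg1 (0.25) and Fth1 (0.25) were also among them. These correlations are weak and over spots that share a library and differ in depth. Outside the IZ Hmox1 had 42.7, 36.8 and 21.6 CPM, and 8.16 CPM in the control, against 613, 546 and 394 CPM over the IZ. Timp1 had 579, 618 and 333 CPM outside the IZ against 2032, 1940 and 2075 CPM over it. Slc40a1 at 3 dpi had 11.8 CPM outside and 15.8 CPM over the IZ. Cxcl5 had 0 UMIs in the control section, which allows up to 0.789 CPM, and Mmp9 had 0.526 CPM.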

How the data were processed

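RNA was measured on 10x Visium arrays in 4 sections of 10 µm, 1 per heart, from 1 control, 1 heart at 3 dpi and 2 at 5 dpi. The deposited files hold the authors' UMI counts per gene and spot, made with Space Ranger 1.3.1 on an Ensembl mouse reference with the GFP sequence added, without normalization. The genome build could not be settled from the sources used here, so no coordinates were taken from the files, and the promoters are RefSeq's on GRCm38.p6. A reference that splits reads between near-identical genes leaves their single values uncertain.

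Spots flagged as tissue with at least 500 UMIs were kept. They numbered 1166, 1753, 1567 and 1423 in the order control, 3 dpi, labelled female and labelled male. The kept UMIs numbered 6370134, 10708223, 11269552 and 9701545, with medians of 4980.5 to 6937 per spot. A spot can hold several cells, so no doublet caller was run. Groups came from the labels' treatment and time point. The members and gene lists were chosen with earlier results of these data known, and the IZ limit is a rule of this re-analysis.

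Counts of matched rich and free spots were summed per section, giving 6 sums, and fitted in edgeR 4.0.16 (R 4.3.3, limma 3.58.1) with filterByExpr, TMM factors, the section as a block and the quasi-likelihood test, at a Benjamini-Hochberg adjusted p of 0.05. The SE is the log2 fold change divided by the square root of F. The pairing comes from the section, since both classes were cut from the same library, and each section is 1 heart. No test was run across spots. The steps were first tested on simulated counts. CPM were taken over non-mitochondrial UMIs.

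Genes named as highest and lowest were the 12 at each end with an adjusted p under 0.05, 1 direction in 3 of 3 sections and at least 20 CPM in a class, without the 12 cardiomyocyte genes of the rule. From each list, up to 4 called members with the smallest adjusted p were named, or the 2 with the highest level where fewer than 2 passed. Other list members were named after their values were seen, to give a role or a gene that did not pass. A few genes that these rules name are not reported here, though the counts include them. Alternatives changed the classes, the pairing (steps within 1, cardiomyocyte share within 0.5 log2 units), the IZ limit, the spot filter (at least 250 genes, at most 50% mitochondrial UMIs), the normalization, the test (DESeq2 1.42.0), the low-count filter, the block and the sections. The pairing on cardiomyocyte share and steps together, the class-by-time term and the omission of sections under cardiomyocyte matching were added after seeing the data. Spot positions, figures and shares used Python 3.11.15 with NumPy 2.4.6, SciPy 1.17.1, pandas 2.3.3 and matplotlib 3.10.9. Binomial intervals are exact at 95%. UMIs count captured molecules, so intervals and the limit of 3 counts for a zero cover counting error only.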

Additional observations from a re-analysis of the deposited data

Results flagged for a closer look

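The class effect, rich over free, was compared between 3 and 5 dpi by the class-by-time term in edgeR, and genes picked by this term are given here. The term rests on 1 heart at 3 dpi, which has no spread of its own, and that heart and the time point cannot be told apart. The 5 dpi effect minus the 3 dpi effect was above 0 for Tnc (1.75 on the log2 scale) and for Uqcrb (0.82). Uqcrb, a subunit of respiratory complex III, was lower in rich spots at 3 dpi (456 against 841 CPM) and nearly level at 5 dpi (404 against 439 and 439 against 492 CPM).

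The difference was below 0 for the macrophage genes Spp1 (-0.73), Apoe (-0.81), Ctsd (-0.62), Ccl8 (-1.40) and Cd74 (-0.76). Ccl8, a chemokine, had 305 against 101 CPM at 3 dpi, and 176 against 162 and 143 against 132 CPM at 5 dpi. Apoe, which carries lipids, had 4591 against 2359 CPM at 3 dpi, and 7354 against 6435 and 7115 against 7407 CPM at 5 dpi. The erythroid genes Hbb-bt (-1.79), Hbb-bs (-1.70), Hba-a1 (-1.92) and Hba-a2 (-1.66) also had differences below 0.

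In the 5 dpi section labelled male, 623 spots of the matrix lay off the tissue mask and were not used above. Of these, 560 had at least 500 UMIs, and S100a8 and S100a9 together stood there at 150 CPM, above 15.0 CPM in the control section and below 199 CPM in the IZ of the same section. Rich spots made up 5.89% of them (33 spots, exact 95% interval 4.09 to 8.18%).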

How the results depend on the processing

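Against 411 genes higher and 800 lower in rich spots, with 22 of the neutrophil genes higher, pairing also on steps gave 112 and 278, pairing also on cardiomyocyte share 41 and 31 with 6 neutrophil genes, and pairing on both 18 and 12 with 3. DESeq2 gave 98 and 349 with 13. Library size alone gave 695 higher, so that higher genes made up 52.7% of the calls instead of 33.9%, with a shift of 0.10 on the log2 scale between the scalings. The fit with no replicate block, in which the pairing by section is dropped, gave 70 and 184 with 12. Leaving out 1 section gave 218 to 471 higher, 533 to 778 lower and 17 to 29 neutrophil genes, the lowest without the 5 dpi section labelled female. Under cardiomyocyte matching it gave 12 to 44 higher and 9 to 48 lower. The other alternatives stayed within 1.5 times of these counts.

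The share of rich spots was 44.9% at 1 or more UMIs, 7.10% at 5 or more and 2.28% after thinning. Among genes named by the rules, the sign turned for Acta1 (0.082), Cyba (-0.051), Jam2 (0.029), Stab1 (-0.068) and Ctss (-0.11) with cardiomyocyte matching, and Acta1 (0.086), Plin2 (-0.083), Stab1 (-0.058) and Ctsl (-0.071) with cardiomyocyte share and steps, none of them past the threshold there. Of the other called genes given above, Gpnmb (-0.49) and Lgals3 (-0.30) turned with cardiomyocyte matching and were past the threshold there, and Cd68 (-0.34), Fcgr1 (-0.006), Ctsb (-0.18), Gapdh (0.073), Aldoa (0.11), Hk1 (0.044), Vwf (0.023), Cspg4 (0.29) and Mmp12 (-0.30) turned and were not. Mmp12 was past it (-0.69) with cardiomyocyte share and steps, as was Gpnmb (-0.39). The cause of these changes was not tested. With 3 sections, 1 of them at 3 dpi, and few UMIs for most neutrophil genes, depth limits what could be tested.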
